A study of Mus musculus with 4 samples.

Results

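The receptors for the hormones that drive the mammary gland, with Greb1, a gene known as an estrogen target and a cofactor of the estrogen receptor, were followed through the mammary epithelium of the mouse. The genes were taken by symbol and were Esr1 (estrogen receptor alpha), Pgr (progesterone receptor), Prlr (prolactin receptor), Ghr (growth hormone receptor), Nr3c1 (glucocorticoid receptor) and Greb1. They are 6 of the 27998 genes in each count table.

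Estrogen and progesterone reach the mammary epithelium from the ovary and bind receptors inside the cell that act as transcription factors. Cells that hold these receptors are mostly luminal and pass the signal on to their neighbours through secreted factors such as amphiregulin, WNT4 and RANKL. Prolactin and growth hormone bind receptors of the class I cytokine family at the cell surface, which act through JAK2 and STAT5, and the glucocorticoid receptor acts with STAT5 on milk protein genes.

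The cells were Lin- CD24+ epithelial cells of female FVB/NJ mice, captured in droplets with a 10x Genomics kit that counts the 3' ends of transcripts. Glands came from puberty (5 weeks of age), from adults in estrus and from adults in diestrus (both 10 weeks). For each adult phase the glands of a pair of mice, staged by vaginal cytology, were pooled, so mice cannot be told apart. Estrus and diestrus are phases of the ovarian cycle, and progesterone is known to be high in diestrus. The comparison between lineages asks which epithelial cells carry each receptor, and the comparison between stages asks how its level differs over development and the cycle.

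The puberty sample was deposited as 2 tables. They shared 5387 barcodes (99.2% of the first table's), which is the cell number that the labels give for both combined. They were counted as 1 library, and the first table was used. The 3 libraries then held 10962454 to 25365324 counts in 2439 to 5428 barcodes, with medians of 3236 to 4103 counts per cell. Other libraries shared at most 24 barcodes. Cells were assigned to the basal lineage (the outer, contractile layer), the luminal progenitor (LP) lineage or the mature luminal (ML) lineage from signature genes. The signatures leave out the hormone receptor genes followed here, Greb1 and every gene of the lists described below. Lineage markers, such as Krt14 and Ptn, and unlisted genes that are named for their correlation were not kept out. The classes rest on expression, so the names stand for basal-like, LP-like and ML-like cells. Puberty, estrus and diestrus (the order of all triplets of values below) had 1133, 1308 and 1052 basal cells, 1775, 475 and 570 LP cells, and 2176, 777 and 670 ML cells. The 8 markers of each lineage summed to 14719 CPM or more in their own class and to 1131 CPM or less in every other class. These markers chose the seed cells and all 8 are in the signature of their lineage, so the sums describe the classes and do not check them independently. In basal cells 1 ML marker, Ptn, made up most of the ML sum. Cells with at least 3 of 5 markers of immune cells, of fibroblasts or of endothelial cells had been left out. In the remaining cells these markers summed to at most 35.6, 12.8 and 10.5 CPM in any class, low values that this filter partly sets. Of the 5 markers each, 1 to 3 immune, 2 to 4 endothelial and 0 to 5 fibroblast markers were at 0 counts in a class and library, and Ptprc, which defines immune cells, was at 0 in every class and library but ML cells of estrus.

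Levels are given as CPM, the counts of a gene summed over the cells of a class and library and scaled to the summed counts of all genes with TMM factors, which correct for differences in composition. Fewer cells with a transcript and less of it per cell cannot be told apart in these sums. Each class and stage had 1 library. Intervals are exact 95% Poisson, binomial or conditional binomial intervals and cover counting error only. Differences between lineages were tested over the 3 libraries with edgeR's quasi-likelihood test, with library as a block. The p-values measure how much a lineage difference varied between these libraries, each of another stage. They do not measure the spread between mice of a stage. Adjusted p-values are Benjamini-Hochberg values over 11145 genes, with a threshold of 0.01. The cells of a class were defined by expression, although not by that of the hormone receptor genes, Greb1 or the listed genes.

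Esr1 lies on chromosome 10 (4611593 to 5005614), Pgr on chromosome 9 (8899833 to 8968611), Prlr on chromosome 15 (10177238 to 10349180) and Ghr also on chromosome 15 (3317760 to 3583492). Greb1 lies on chromosome 12 (16670615 to 16800886). These places are from GRCm38 with the GENCODE M21 annotation. Counts are made over exons of the whole gene. The annotated gene Gm21973 overlaps the 3' end of Prlr on the same strand, and it had 3 counts in all basal, LP and ML cells, so Prlr counts may lack reads that could not be given to 1 gene.

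Windows around transcription start sites, 250 bases before and 50 after, are shown for Esr1, Pgr and Prlr because these 3 genes were highest in the same lineage. The RefSeq windows used here, on GRCm38.p6, cover 10 start sites of 5 of the 6 genes. The 3' counts do not tell which start site was used. Capitals mark matches to any of 5 motifs searched on both strands: the estrogen response element GGTCANNNTGACC, its half-site AGGTCA, the half-site AGAACA that progesterone and glucocorticoid receptors share, the STAT5 site TTCNNNGAA and the forkhead site TGTTTAC. The Pgr window and 1 window each of Esr1 and Prlr, the second start site along each gene, chosen because they hold matches, are printed 5' to 3'.
Pgr, chr9:8899583-8899882, plus strand: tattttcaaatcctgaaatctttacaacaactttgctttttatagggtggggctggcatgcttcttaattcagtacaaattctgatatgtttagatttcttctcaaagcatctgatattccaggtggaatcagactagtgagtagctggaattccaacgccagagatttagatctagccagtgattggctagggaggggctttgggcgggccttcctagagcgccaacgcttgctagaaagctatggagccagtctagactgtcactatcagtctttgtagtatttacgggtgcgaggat
Esr1, second start site, chr10:4709908-4710207, plus strand: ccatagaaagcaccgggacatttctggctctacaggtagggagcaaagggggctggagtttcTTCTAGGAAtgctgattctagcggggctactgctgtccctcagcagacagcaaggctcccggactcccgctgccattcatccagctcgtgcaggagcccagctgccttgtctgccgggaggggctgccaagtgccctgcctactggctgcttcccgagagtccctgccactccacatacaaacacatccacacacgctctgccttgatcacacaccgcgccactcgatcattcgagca
Prlr, second start site, chr15:10223656-10223955, plus strand: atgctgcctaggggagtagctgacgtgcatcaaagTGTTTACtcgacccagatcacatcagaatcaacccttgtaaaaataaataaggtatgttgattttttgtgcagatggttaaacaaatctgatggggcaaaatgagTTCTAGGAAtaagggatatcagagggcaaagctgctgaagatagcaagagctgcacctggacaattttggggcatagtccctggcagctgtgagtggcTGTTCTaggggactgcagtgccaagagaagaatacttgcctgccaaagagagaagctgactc
The Esr1 and Prlr windows hold the same STAT5-type letters, TTCTAGGAA, 188 bases before the start in Esr1 and 110 bases before it in Prlr. The Prlr window also holds TGTTTAC at 215 bases and TGTTCT, the reverse complement of AGAACA, at 12 bases before the start. Of the other windows of the 5 genes, none but the first of Greb1 holds any of the motifs. Over all 32851 windows of this length, 8.30% hold the STAT5 letters, 3.65% TGTTTAC or its reverse complement, 19.0% AGAACA, 16.3% AGGTCA and 0.0700% the full estrogen response element. AGGTCA was found for 1 of the 10 start sites, the first of Greb1, and no window of these genes holds the full element. The motifs differ in letters and none of the matches shown overlap. A match is a description of the letters only.

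Lineage divided these genes into 2 patterns. Esr1, Pgr and Prlr were higher in ML cells than in LP cells and than in basal cells, and Ghr and Nr3c1 were lower in ML cells than in both, each in 3 of 3 libraries. Of the 5 genes that passed the filter on low counts, 3 were higher and 2 lower in ML than in LP cells, against 12.8% of all tested genes higher and 15.4% lower. Against basal cells, the same 3 were higher and the same 2 lower, against 19.9% and 23.4% of all tested genes. Each of the 5 also reached the filter's limit of 2.45 CPM in all 3 libraries of a class other than ML. Greb1 did not pass the filter.

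**Figure D1:**
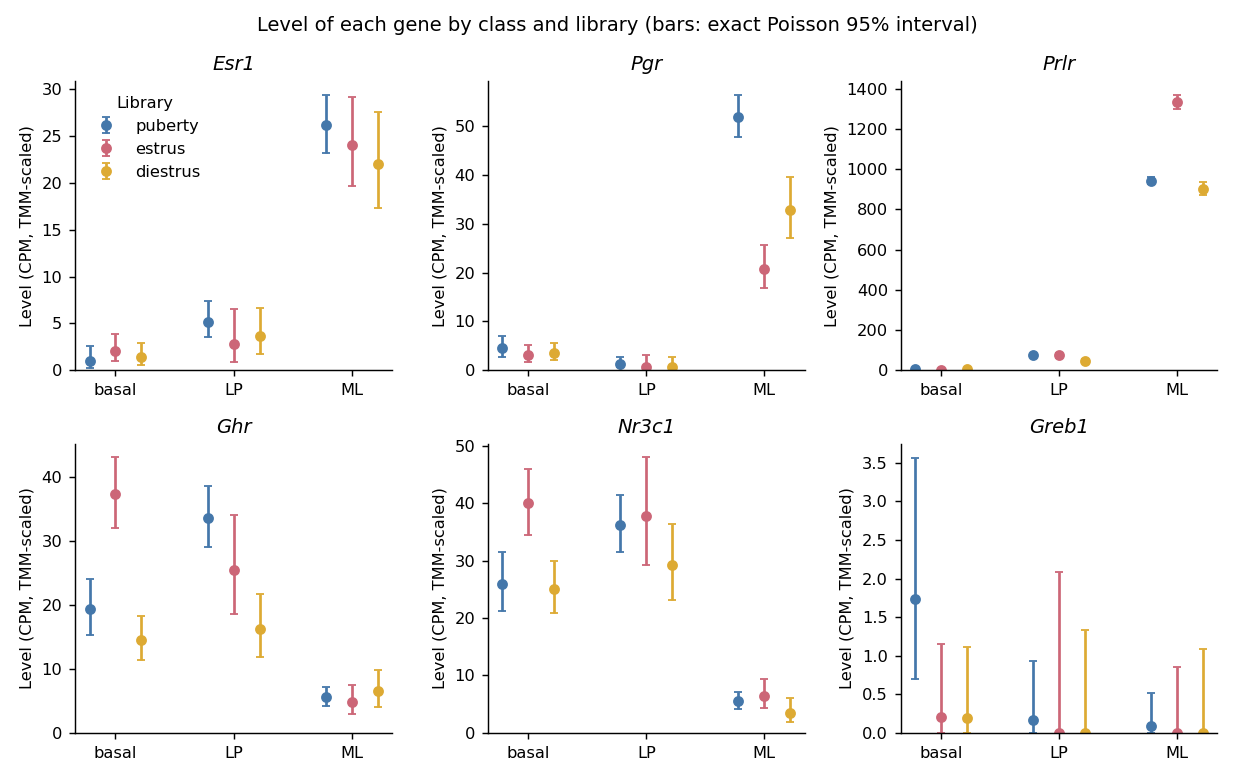
Levels of the 6 genes (CPM, TMM-scaled, each panel with its own linear axis from 0) in basal, LP and ML cells, with 1 point per library and exact Poisson 95% intervals. Esr1, Pgr and Prlr are highest in ML cells in all 3 libraries, Ghr and Nr3c1 are lowest there, and Greb1 is near 0 in every class.

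Esr1, the receptor through which estrogen drives ductal growth, was measured in ML cells at 26.2 CPM (interval 23.2 to 29.4) for puberty, 24.1 (19.7 to 29.2) for estrus and 22.0 (17.3 to 27.6) for diestrus, a mean of 24.1 ± 2.08 (SD, n = 3). In LP cells it was at 5.18, 2.82 and 3.61 CPM, and in basal cells at 0.990, 2.08 and 1.40 CPM, for puberty, estrus and diestrus. The ML values lay above every LP and basal value, and the LP values lay above every basal value. ML cells exceeded LP cells by 2.54 on the log2 scale (SE 0.264, edgeR adjusted p = 2.33e-05) and basal cells by 3.96 (SE 0.291, adjusted p = 9.02e-07). Between LP and basal cells the log2 difference was 1.43 (SE 0.375, adjusted p = 0.00948), just past the threshold. This last call rests on 4 to 31 counts per pseudobulk and was lost when any single library was left out, with log2 differences from 0.95 without the puberty library to 1.81 without the estrus library.

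A count for Esr1 was present in 9.70%, 11.8% and 10.3% of ML cells. In basal cells the shares were 0.353%, 0.765% and 0.665%, at median totals of 2539 to 3393 counts per cell against 4129 to 4662 in ML cells. With each ML cell thinned to 2000 counts, the shares were 4.41%, 5.58% and 4.36%. The share fell with depth, so a count of 0 in a single cell does not show that the receptor is absent.

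Pgr, the receptor through which progesterone drives side branching, had the lowest level of its 3 classes in LP cells and not in basal cells. In ML cells it was at 51.9 CPM (47.7 to 56.4) for puberty, 20.8 (16.8 to 25.6) for estrus and 32.9 (27.1 to 39.6) for diestrus, with a mean of 35.2 ± 15.7 (SD, n = 3). In basal cells it was at 4.46, 3.12 and 3.59 CPM, and in LP cells at 1.34, 0.565 and 0.721 CPM. The ranges of the 3 classes did not overlap. ML cells exceeded LP cells by 5.24 on the log2 scale (SE 0.289, edgeR adjusted p = 1.77e-07) and basal cells by 3.18 (SE 0.214, adjusted p = 4.56e-07). LP cells were lower than basal cells, with a log2 difference of -2.06 (SE 0.376, adjusted p = 0.00102), a comparison that rests on 8, 1 and 2 LP counts. It missed the threshold without the puberty library (log2 difference -2.33, adjusted p = 0.0125) and without the diestrus library (-2.005, adjusted p = 0.0109).

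The Pgr counts of basal cells were set beside the number that their Prlr counts would bring at the ratio of summed Pgr to summed Prlr counts in ML cells of the same library. Basal cells held 18 Pgr counts (10.7 to 28.4) for puberty, 15 (8.39 to 24.7) for estrus and 18 (10.7 to 28.4) for diestrus. At the ML ratio of Pgr to Prlr, their 32, 12 and 34 Prlr counts would come with 1.77, 0.187 and 1.24 Pgr counts. The counted numbers exceeded these in all 3 libraries, and each lower bound lay above the number at the ML ratio. Esr1 in basal cells, at 4, 10 and 7 counts against 0.891, 0.217 and 0.832 at the ML ratio, also had each lower bound above it. In puberty this was by little, with a lower bound of 1.09. The bounds of both genes leave out the counting error of the basal Prlr counts and of the ML ratio, so this separation for Esr1 in puberty is not secure. The basal cells with a Pgr count numbered 16, 14 and 17, held 1, 0 and 3 Prlr counts in all, and had Krt14, a basal keratin, at 2794, 4795 and 3289 CPM. In the basal cells without a Pgr count, Krt14 was at 4633, 7180 and 3773 CPM. The cells with a Pgr count had higher median totals, at 4072, 4006 and 5922 counts against 2886, 2537 and 3366. At least 3 of 10 cell cycle genes were seen in 4 of 16, 1 of 14 and 9 of 17 of them. Among the basal cells without a Pgr count, this held for 152 of 1117, 80 of 1294 and 236 of 1035. The part of RNA from ML cells in the Pgr and Esr1 counts of basal cells was not tested.

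In LP cells of puberty, Pgr counts lay below the number at the ML ratio. LP cells held 8 Pgr counts in puberty (3.45 to 15.8), against 24.99 at the ML ratio to their 453 Prlr counts. In estrus and diestrus they held 1 and 2 Pgr counts, against 2.04 and 4.71, and there the intervals included the number at the ML ratio. Esr1 in LP cells had 31 counts in puberty (21.1 to 44.0) against 12.6 at the ML ratio, 5 in estrus (1.62 to 11.7) against 2.36 and 10 in diestrus (4.79 to 18.4) against 3.16. In puberty the Prlr counts of LP cells thus came with fewer Pgr counts and more Esr1 counts than in ML cells. In diestrus they also came with more Esr1 counts, and in estrus the Esr1 interval included the number at the ML ratio.

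**Figure D2:**
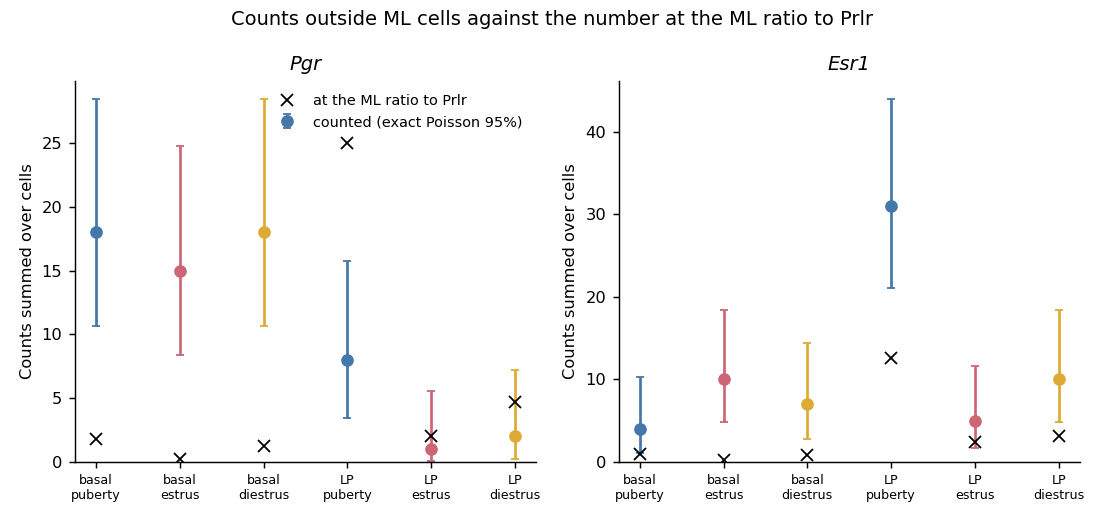
Counts of Pgr and Esr1 summed over basal and LP cells of each library (points, exact Poisson 95% intervals) with the number that their Prlr counts would bring at the ML ratio (crosses), on linear axes from 0. Pgr in basal cells (15 to 18 counts) lies above its crosses in all 3 libraries, and Pgr in LP cells of puberty (8 counts) lies below its cross at 24.99.

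Prlr, the receptor that prolactin uses to bring about alveolar development, separated the classes most widely of these genes against basal cells. In ML cells it was at 941 CPM (923 to 960) for puberty, 1334 (1300 to 1369) for estrus and 901 (869 to 934) for diestrus, with a mean of 1059 ± 239 (SD, n = 3). In LP cells it was at 75.6, 74.0 and 46.5 CPM, and in basal cells at 7.92, 2.50 and 6.78 CPM. The classes formed 3 steps without overlap. ML cells exceeded LP cells by 4.03 on the log2 scale (SE 0.266, edgeR adjusted p = 6.71e-07) and basal cells by 7.52 (SE 0.331, adjusted p = 2.01e-08), and LP cells exceeded basal cells by 3.49 (SE 0.319, adjusted p = 7.11e-06). With classes from Leiden clusters the last difference was 1.15 (adjusted p = 0.0214) and no longer past the threshold. The ML marker Ptn was at 112, 139 and 133 CPM in LP cells and at 1081, 791 and 701 CPM in basal cells, where 72.5%, 70.6% and 79.2% of cells had a count. The 7 other ML markers summed to 75.7, 96.9 and 60.6 CPM in LP cells and to 49.9, 31.0 and 27.98 CPM in basal cells, so they were higher in the class with more Prlr. Their part in the Prlr difference was not tested. Among cells within 1/6 of the way from their seed median, a limit chosen after seeing the data, LP cells had 68.4, 63.6 and 43.1 CPM.

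A count for Prlr was present in 1996 of 2176 ML cells (91.7%), 757 of 777 (97.4%) and 624 of 670 (93.1%). In LP cells the shares were 16.3%, 19.6% and 15.6%, and in basal cells 2.74%, 0.765% and 2.47%. Thinned to 2000 counts, 75.8%, 89.8% and 77.5% of ML cells, 9.77%, 12.1% and 7.72% of LP cells and 1.67%, 0.502% and 1.19% of basal cells had one. The thinned ML cells had medians of 2, 3 and 2 Prlr counts, with at most 13, 14 and 11 in a cell. The order of the classes was thus the same at equal depth.

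LP against basal cells, 2 of the 5 tested genes (Esr1 and Prlr) were higher, against 16.3% of all tested genes, and 1 (Pgr) was lower, against 16.8%. Ghr and Nr3c1 did not pass the test there. The plot of fold changes shows these 15 differences together.

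**Figure D3:**
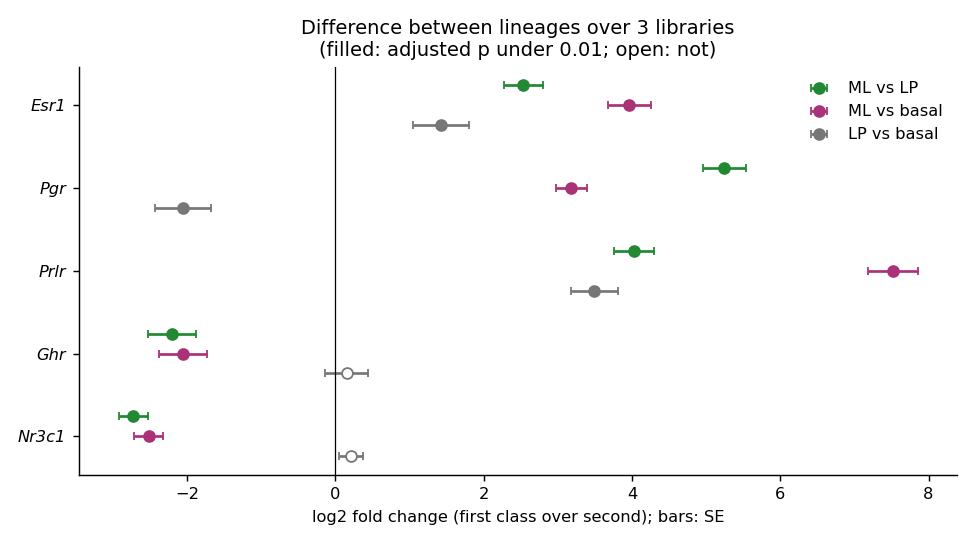
Log2 fold changes of the 5 tested genes for ML against LP, ML against basal and LP against basal cells over 3 libraries, with standard errors as bars. Filled points passed an adjusted p of 0.01, and the open points are Ghr and Nr3c1 for LP against basal cells, at 0.15 and 0.21.

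Ghr, the receptor through which growth hormone supports ductal outgrowth, had the opposite pattern to Prlr, to which it is related. In ML cells it was at 5.57 CPM (4.25 to 7.17) for puberty, 4.86 (3.01 to 7.43) for estrus and 6.46 (4.05 to 9.79) for diestrus. In LP cells it was at 33.6, 25.4 and 16.2 CPM, and in basal cells at 19.3, 37.2 and 14.6 CPM. Every ML value lay below every LP and basal value, while the LP and basal ranges overlapped. ML cells were lower than LP cells, with a log2 difference of -2.20 (SE 0.328, edgeR adjusted p = 0.000319), and lower than basal cells, with -2.05 (SE 0.323, adjusted p = 0.000275). LP and basal cells differed by 0.15 (SE 0.290, adjusted p = 0.701). Their order changed between libraries, with a log2 ratio of LP to basal of 0.80 (0.41 to 1.19) for puberty, -0.55 (-1.06 to -0.07) for estrus and 0.16 (-0.41 to 0.71) for diestrus.

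Nr3c1, the receptor for corticosterone, was in ML cells at 5.48 CPM (4.17 to 7.07) for puberty, 6.48 (4.31 to 9.37) for estrus and 3.53 (1.82 to 6.16) for diestrus. In LP cells it was at 36.2, 37.8 and 29.2 CPM, and in basal cells at 26.0, 40.0 and 25.1 CPM. The gene lies on chromosome 18 (39410545 to 39519421). The ML values again lay below all others, and the LP and basal ranges overlapped. ML cells were lower than LP cells, with a log2 difference of -2.73 (SE 0.195, edgeR adjusted p = 1.27e-06), and lower than basal cells, with -2.52 (SE 0.193, adjusted p = 1.24e-06). The difference between LP and basal cells was 0.21 (SE 0.167, adjusted p = 0.334).

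Greb1 was close to the limit of detection everywhere. It had 7 counts in 4 basal cells of puberty, 1 count each in basal cells of estrus, basal cells of diestrus, LP cells of puberty and ML cells of puberty, and 0 in the other 4 pseudobulks. For ML cells of estrus, where Esr1 had 104 counts, the 0 counts allow at most 0.854 CPM by the exact interval. As many as 3 of the 7 basal counts of puberty came from 1 cell. The ratio of puberty to estrus in basal cells was 8.33, with an interval from 1.07 to 375, and this depth allows no closer statement on classes or stages.

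Cells with a count for several of Esr1, Pgr and Prlr were few at equal depth. After thinning to 2000 counts, 1 of the 3 genes was seen in 68.8%, 82.1% and 71.3% of 2027, 710 and 607 ML cells, 2 in 9.42%, 8.31% and 9.39%, and all 3 in 0.395%, 0.422% and 0.330%. None of the 3 was seen in 21.4%, 9.15% and 18.9% of ML cells, in 97.0%, 97.9% and 97.4% of basal cells, and in 89.9%, 86.8% and 90.6% of LP cells. Shallower cells were left out, 149, 67 and 63 of them ML cells. Most ML cells with a count had it for 1 gene only. At this depth Esr1 was seen in 4.41%, 5.58% and 4.36% of ML cells and Pgr in 8.38%, 4.66% and 7.40%. A receptor missed at this depth cannot be told apart from an absent one.

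Within thinned ML cells, a count for 1 sex steroid receptor was not clearly linked to a count for the other. Pgr was seen in 10 of 97 cells with Esr1 in puberty (10.3%, 5.06 to 18.1) and in 157 of 1930 cells without (8.13%, 6.95 to 9.44). The shares were 3 of 44 and 24 of 666 in estrus, and 2 of 27 and 40 of 580 in diestrus. The intervals overlapped in each library, and with so few cells a link or its absence was not detectable. Prlr was seen in 80.2% of cells with Pgr and 75.4% without in puberty, in 88.9% and 90.04% in estrus, and in 95.2% (40 of 42, 83.8 to 99.4) and 78.6% (444 of 565, 74.97 to 81.9) in diestrus. Of these 3 libraries, only diestrus had intervals that did not overlap. Cells of 1 library are not replicates, so no test was made.

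ML cells with cell cycle genes had a lower Prlr level than other ML cells in each library. Cells with at least 3 of 10 cycling genes numbered 206, 71 and 83. Prlr was at 386 CPM in them against 1001 CPM in the other ML cells in puberty, 494 against 1807 in estrus and 377 against 1075 in diestrus (CPM without TMM factors). The Poisson intervals of each pair did not overlap. Esr1 was at 16.1 against 26.7 CPM in puberty, 14.4 against 31.3 in estrus and 18.1 against 23.6 in diestrus, with intervals that overlapped in estrus and diestrus. Pgr was at 42.8 against 50.7 CPM, 20.2 against 25.3 and 15.5 against 38.8, and the intervals overlapped in puberty and estrus. The cycling cells held more RNA counts, with medians of 9487, 9892 and 9496 per cell against 4488, 3934.5 and 4129, and the part of this in the lower share of Prlr was not tested.

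The 233, 117 and 100 luminal cells that lay between the LP and ML classes had Prlr at 673, 1233 and 644 CPM without TMM, Esr1 at 19.8, 22.2 and 18.1 CPM, and Nr3c1 at 21.1, 20.9 and 13.9 CPM. The Prlr, Esr1 and Nr3c1 values lay between those of the LP and ML classes in each library, as did Ghr at 12.8, 9.14 and 8.365 CPM. Pgr, at 28.1, 9.14 and 37.6 CPM, lay between them in puberty and estrus. In diestrus it lay above the ML level (32.9 CPM with TMM), on 27 counts with an interval of 24.8 to 54.8 that included that level. All cells between lineages had median totals of 6534, 5927 and 6554 counts, above those of every class. Droplets that hold an LP and an ML cell could not be told apart from single intermediate cells.

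Stages were compared within a class as ratios of levels, with no test because each stage had 1 library. In ML cells, Pgr was the single member of the 3 with at least 10 CPM (Esr1, Pgr and Prlr) that differed by 1.5-fold or more. This held for diestrus to estrus, where 17.2% of 6576 genes passed that fold, for puberty to estrus (18.3%) and for puberty to diestrus (14.8%). Pgr was 1.58-fold higher in diestrus than in estrus (interval 1.19 to 2.11), 2.49-fold higher in puberty than in estrus (1.99 to 3.15) and 1.58-fold higher in puberty than in diestrus (1.29 to 1.95). The order puberty, diestrus, estrus had neighbours whose intervals did not overlap.

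Prlr in ML cells had the reverse order for the phases of the cycle. Its level in estrus was 1.48-fold that in diestrus (1.42 to 1.55) and 1.42-fold that in puberty (1.37 to 1.46), just inside the 1.5-fold limit, while puberty and diestrus differed by 0.06 on the log2 scale (interval 0.0048 to 0.12). The last difference changed direction without TMM factors (-0.03) and under 4 other alternatives. Without TMM factors, Prlr passed the 1.5-fold limit, with a log2 ratio of -0.77 for diestrus to estrus and -0.80 for puberty to estrus. The TMM factors moved the ratios of all genes in ML cells by 0.21 and 0.30 on the log2 scale in these pairs. Esr1 in ML cells had log2 ratios of -0.13 for diestrus to estrus (-0.57 to 0.32), 0.12 for puberty to estrus (-0.21 to 0.46) and 0.25 for puberty to diestrus (-0.12 to 0.64). A difference in Esr1 was not detectable on 75 to 282 counts, and the intervals reach 1.55-fold at most. With classes from the 8 markers of each lineage alone, the log2 ratios of puberty to estrus and to diestrus were -0.28 and -0.24.

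In basal cells both measured members, Ghr and Nr3c1, were highest in estrus. Ghr was 2.56-fold higher in estrus than in diestrus (1.94 to 3.41) and 1.93-fold higher than in puberty (1.47 to 2.55). Nr3c1 was 1.59-fold higher in estrus than in diestrus (1.26 to 2.01; a log2 ratio of -0.28 for diestrus to estrus with classes from the 8 markers of each lineage alone) and 1.54-fold higher than in puberty (1.21 to 1.97). Both passed 1.5-fold for diestrus to estrus, as did 24.0% of 6861 genes, and for puberty to estrus, as did 28.9%. Between puberty and diestrus neither passed it, against 22.0% of genes. The share of basal cells with a Ghr count was 5.56%, 12.1% and 6.18% in puberty, estrus and diestrus, and 3.76%, 8.72% and 3.54% after thinning. Basal cells with at least 3 of 10 cell cycle genes numbered 156, 81 and 245, and had Ghr at 5.55, 13.8 and 6.60 CPM without TMM. In the other basal cells Ghr was at 23.95, 46.1 and 21.6 CPM, also highest in estrus. The Poisson intervals of each pair did not overlap. Prlr in basal cells had the opposite order on few counts (32, 12 and 34), at 2.71-fold higher in diestrus than in estrus (1.37 to 5.76), and reversed with classes from Leiden clusters (log2 ratio -1.09).

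In LP cells Prlr and Ghr were lowest in diestrus. Prlr was 1.63-fold higher in puberty than in diestrus (1.33 to 1.99) and 1.59-fold higher in estrus than in diestrus (1.24 to 2.04). Ghr was 2.07-fold higher in puberty than in diestrus (1.49 to 2.93) and 1.57-fold higher in estrus than in diestrus (1.01 to 2.42). Of 3 members measured, 2 passed 1.5-fold for diestrus to estrus, as did 28.5% of 6776 genes, and for puberty to diestrus, as did 24.2%. For puberty to estrus 0 of 3 passed it, against 23.5% of genes. TMM factors moved the LP ratios of puberty by 0.28 and 0.35 on the log2 scale, and without them the Prlr log2 ratio of puberty to diestrus was 0.35. Nr3c1 in LP cells had intervals that included no difference for all 3 pairs.

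**Figure D4:**
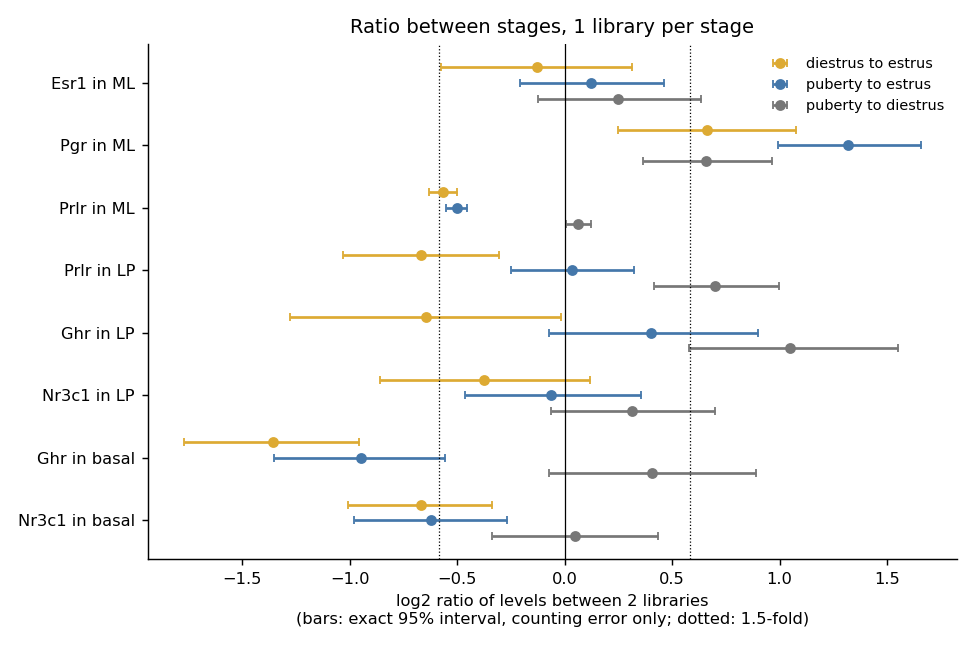
Log2 ratios between the libraries of 2 stages for the members with at least 10 CPM in a class, with exact 95% intervals for counting error and dotted lines at 1.5-fold. Pgr in ML cells lies to the right for puberty and diestrus against estrus (1.32 and 0.66), and Ghr and Nr3c1 in basal cells lie to the left (-1.36 and -0.67 for diestrus to estrus).

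The genes around the receptors were described from 6 lists. Named genes are the 4 with the highest mean level of each list, Tnfsf11, Wnt4 and Calca, and, chosen after their values were seen, other genes behind counts of called genes, with Esr2 and Calcr. Among 10 cofactors of steroid receptors, Foxa1 and Tbx3 were higher and Ncoa3 lower in ML than in LP cells, with log2 differences of 4.97, 4.53 and -1.43. These are 2 and 1 of 10 genes, beside 12.8% higher and 15.4% lower over all tested genes. The shares of all tested genes for the other comparisons, given above for the receptors, apply to each list. Foxa1, which opens chromatin for the estrogen receptor, was at 50.9, 75.9 and 59.7 CPM in ML cells and at most 2.26 CPM in LP and basal cells. Gata3, a luminal transcription factor, differed by 0.57 between ML and LP cells (SE 0.199, edgeR adjusted p = 0.0404) and was higher in ML than in basal cells by 1.36 (adjusted p = 0.000171). Foxa1, Gata3 and Tbx3 were the 3 cofactors higher in ML than in basal cells, and Ncoa1 was the 1 that was lower (log2 difference -1.69). LP against basal cells, Foxa1, Gata3 and Ncoa3 were higher and Tbx3 was lower. The corepressors Ncor1, Nrip1 and Tle3 did not pass the test in any of the 3 comparisons. The list medians of the log2 difference were 0.13 for ML against LP, 0.24 for ML against basal and 0.04 for LP against basal cells, beside -0.04, -0.04 and 0.0038 over all genes tested.

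Of 10 estrogen receptor targets, 6 could be tested, and 3 of these were higher and 2 lower in ML than in LP cells, against 12.8% and 15.4% of all tested genes, with a list median of 1.47. Areg, the EGF family ligand that carries the estrogen signal to the stroma, was at 3174 CPM in ML cells of puberty, 596 in estrus and 1861 in diestrus, and at most 63.6 CPM in other classes. Stc2, which encodes the secreted glycoprotein stanniocalcin, was at 1484, 848 and 1007 CPM in ML cells. Both had the order of Pgr across the stages, highest in puberty and lowest in estrus. For Esr1 a difference between stages was not detectable in ML cells. The log2 difference of ML against LP cells was 6.71 for Areg (SE 0.268, edgeR adjusted p = 2.42e-08), 5.86 for Stc2 (SE 0.185, adjusted p = 8.21e-09) and 3.83 for Myb. Xbp1 and Igfbp4 were lower (log2 differences -0.99 and -2.42), and Ccnd1, which encodes cyclin D1, did not pass (log2 difference -0.89, adjusted p = 0.0140). Against basal cells, Areg, Stc2, Xbp1 and Myb were higher in ML cells and Igfbp4 was lower, and LP against basal cells Stc2, Xbp1 and Ccnd1 were higher and Igfbp4 was lower. The list medians for these comparisons were 2.90 and 1.07.

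Of 9 progesterone receptor targets, 5 could be tested. Wnt4, the WNT ligand downstream of progesterone, was the 1 higher in ML than in LP cells (log2 difference 3.59, SE 0.213, edgeR adjusted p = 2.87e-07), and it was at 41.4 CPM in puberty, 39.3 in estrus and 64.4 in diestrus in ML cells. Tnfsf11, which encodes RANKL, had 41, 0 and 273 counts in ML cells of puberty, estrus and diestrus, and Calca, which encodes calcitonin, had 0, 0 and 1168. Wnt4, Tnfsf11 and Calca were highest in diestrus in ML cells, whereas Pgr was highest in puberty. Sgk1, a kinase gene that is also listed under the glucocorticoid receptor, was highest in puberty in ML cells, at 386, 212 and 284 CPM. Cxcl12, which encodes a chemokine, was lowest in diestrus in basal cells, at 135, 113 and 69.2 CPM. Against basal cells Wnt4 was higher in ML cells and Cxcl12, Adamts18 and Sgk1 were lower, with log2 differences of 3.72 for Wnt4, -6.81 for Cxcl12 and -0.88 for Sgk1. Adamts18 had 98, 100 and 109 counts in basal cells and 0 in ML cells of each library. LP against basal cells Fkbp5 was higher and Cxcl12 and Adamts18 were lower. Rspo1 was at 2.004, 1.69 and 175.6 CPM in LP cells and was not tested. The list medians were -0.62 for ML against LP, -0.88 for ML against basal and -0.45 for LP against basal cells.

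Of 10 genes of JAK-STAT5 signalling, 9 could be tested, and Socs3 alone was higher in ML than in LP cells (log2 difference 1.71, SE 0.189, edgeR adjusted p = 3.73e-05). Socs3, a feedback inhibitor of cytokine receptors, was lower in ML than in basal cells (log2 difference -1.12), and so was Socs1 (-2.94). Stat5a, the main STAT of the prolactin receptor in the mammary gland, was at 63.1 CPM in puberty, 27.1 in estrus and 61.4 in diestrus in ML cells. It was 2.27-fold higher in diestrus than in estrus, the opposite order to Prlr. Jak2, Stat5a and Stat5b were higher in ML than in basal cells, by 1.35, 1.51 and 1.02 on the log2 scale. Cish and Socs2, both targets of STAT5, did not pass in any comparison. LP against basal cells, Stat5a and Stat5b were higher and Socs1 and Socs3 lower. The list medians were -0.15, -0.35 and -0.04 in the order of the comparisons above.

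All 10 glucocorticoid receptor targets could be tested. Of these, 6 were lower in ML than in LP cells, against 15.4% of all tested genes, and the other 4 did not pass, with a list median of -1.47. Dusp1, a phosphatase of MAP kinases, was at 552, 1025 and 782 CPM in LP cells and at 214, 395 and 350.0 CPM in ML cells. Nfkbia, the inhibitor of NF-kappa-B, was at 1601, 2734 and 2593 CPM in LP cells and at 578, 506 and 605 CPM in ML cells. The ML values lay below the LP values of the same library for both genes, with log2 differences of -1.30 (SE 0.113, edgeR adjusted p = 5.53e-06) and -1.94 (SE 0.302, adjusted p = 0.000448). Tsc22d3, Per1, Klf9 and Ddit4 were the others that were lower. Sgk1 and Mt2 differed by -0.43 and -0.20 and did not pass. Between LP and basal cells Nr3c1 did not pass, and 5 of the listed targets were higher in LP cells (Tsc22d3, Fkbp5, Per1, Klf9 and Nfkbia, list median 1.23), against 16.3% of all tested genes. The other 5 did not pass. Against basal cells 5 were lower in ML cells (Sgk1, Klf9, Dusp1, Ddit4 and Mt2), against 23.4% of all tested genes, and 1, Zbtb16, was higher, with a median of -0.67. Fkbp5, like Sgk1, stands in both lists of targets.

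Of 17 other hormone receptors, 9 could be tested, and Vdr, Igf1r and Oxtr were lower in ML than in both LP and basal cells, against 15.4% and 23.4% of all tested genes. Vdr, the vitamin D receptor, was at 7.71, 6.94 and 7.35 CPM in ML cells, 74.6, 44.0 and 28.8 in LP cells and 33.2, 50.6 and 24.7 in basal cells. Oxtr, the oxytocin receptor of contractile cells, was at 62.6, 257 and 108 CPM in basal cells, and it was lower in LP cells (log2 difference -3.01, SE 0.239, edgeR adjusted p = 2.42e-06). It was highest in estrus in basal cells, as Ghr, Nr3c1 and Vdr were. The thyroid hormone receptor Thra and the retinoic acid receptor Rarg, also highest in estrus in basal cells, did not pass in any comparison. Esr2, which encodes estrogen receptor beta, and Calcr, the calcitonin receptor, had 0 counts in every pseudobulk. The other 6 tested receptors did not pass between ML and either class. The list medians were -0.02, -0.32 and 0.03.

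**Figure D5:**
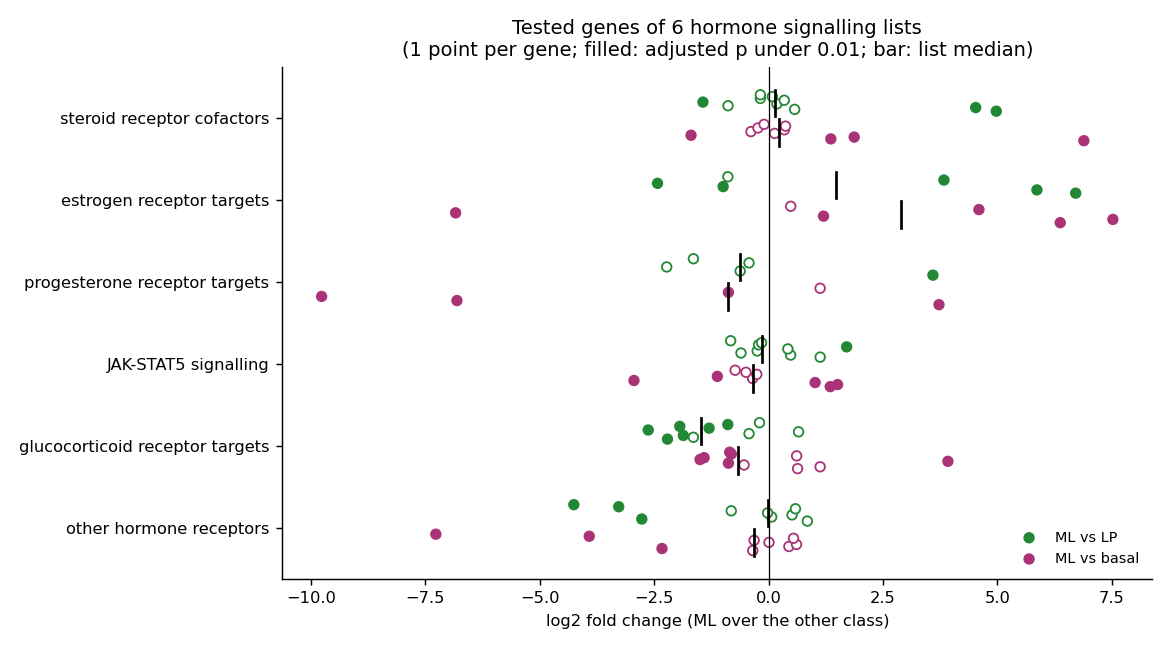
Log2 fold changes of the tested genes of 6 lists for ML against LP and ML against basal cells, 1 point per gene, filled where the adjusted p was under 0.01, with black bars at list medians. Of the glucocorticoid receptor targets 6 of 10 lie to the left and are filled for ML against LP cells, and the estrogen receptor targets Areg and Stc2 lie farthest to the right among their list.

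Genes whose levels followed each receptor most closely were ranked by the Pearson correlation of log2(CPM + 1) over the 9 pseudobulks, which share libraries and classes, among 7088 genes with a mean of at least 10 CPM. For Esr1 these were Mcur1 (r = 0.984), Pgap2 and Idnk, for Pgr Pon2 (0.979), Hist1h2bc and 1700123O20Rik, and for Prlr Gdpd1 (0.996), Ly6d and Vill. For Ghr the closest gene was another hormone receptor, Vdr (0.984), followed by Slc41a1 and Dock1. For Nr3c1 they were Plekhf1 (0.996), Mgll and Smim10l1. Greb1 gave Kcnq1ot1 (0.963), Rnf121 and Ap2a2, on 11 counts in all. The correlations describe levels that differ mostly between the 3 classes.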

How the data were processed

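Droplet 3' RNA sequencing counts of mammary epithelial cells were used from 3 libraries (puberty, estrus and diestrus), 1 per stage. The authors made the deposited counts, whole numbers of molecules per gene and barcode without normalization, with Cell Ranger 2.0 on mm10, per the submitters' processing notes. All deposited barcodes were read, with no further filter on depth and no doublet caller. Doublets are treated by leaving out cells between lineages and, as an alternative, the 5% of cells with the highest totals in each class. The 2 puberty tables share nearly all barcodes and were counted as 1 library. Another cell type was called, and left out, from at least 3 of 5 immune, endothelial or fibroblast markers.

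Seed cells exceeded both other lineages by a margin of 1 in the z-score over 8 markers. Signatures held up to 100 genes, at least 2-fold higher in the seeds of 1 lineage in every library and present in at least 10% of them. A cell was given the lineage whose seed median it lay within 1/3 of the way from. Signatures leave out the 6 genes, all listed genes and cycling, mitochondrial and ribosomal genes. Counts were summed per class and library into 9 pseudobulks of 1847441 to 11342006 counts and fitted with edgeR 4.0.16 in R 4.3.3 (TMM, filterByExpr, quasi-likelihood F test, library as a block, Benjamini-Hochberg adjustment, adjusted p under 0.01). Standard errors (SE) were derived from the F statistic and the log2 fold change. The fit was tested on simulated data. Stages were compared by ratios of scaled counts with exact intervals, and genes with a mean of at least 10 CPM in a class were set against a 1.5-fold limit on the log2(CPM + 1) scale. Alternatives covered the second puberty table, the classes, cell filters, gene filter, scaling, pseudocount, the block, DESeq2 1.42.0 and leaving out each library. Shares of cells were also taken after each cell was thinned at random to 2000 counts. Co-detection used a single seeded draw.

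The 6 genes, the lists and the comparisons were chosen with earlier results of these data known, so the lists give no independent support. The genes named were the 6 genes, the 4 with the highest mean CPM of each list with Tnfsf11, Wnt4 and Calca, and for each of the 6 genes the 3 with the highest correlation. Other listed genes are named where they make up a count of called genes, chosen after their values were seen. GENCODE M21 matched 27645 of the 27998 gene IDs. Start site windows came from a table of RefSeq sequences on GRCm38.p6, to which 5 of the 6 genes were matched.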

Additional observations from a re-analysis of the deposited data

Results flagged for a closer look

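Ghr differed in direction between LP and basal cells across libraries. Its log2 ratio of LP to basal cells was 0.7976 in puberty and -0.5522 in estrus, and the counting intervals of both left out 0. Each stage has 1 library, so the difference between the stages was not tested.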

How the results depend on the processing

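Under the alternatives, 732 recomputed values kept their direction and side of the threshold or, without a test, stayed within their counting interval (counts of genes, within 1.5 times). A further 50 moved by more, 15 lost their call and 9 changed direction. The calls of all 5 tested genes for ML against LP and ML against basal cells kept their direction and side of the threshold under every alternative. No paired analysis was possible between stages because the labels give the groups no shared replicate numbers. Between lineages, the library block pairs the classes of a library, and without it 1758 rather than 3134 genes differed between ML and LP cells, 2446 rather than 3697 between LP and basal cells, and 1 rather than 3 of the 6 genes between LP and basal cells, with Esr1 at 1.43 and Pgr at -1.85 no longer called. Leaving out 1 library gave 2012 to 2257 genes for ML against LP cells and 1 to 2 of the 6 genes for LP against basal cells, where log2 differences ranged from 0.9493 to 1.805 for Esr1, from -2.33 to -1.976 for Pgr and from -0.2223 to 0.5021 for Ghr. For LP against basal cells, Esr1 was also no longer called with the second puberty table (1.45), the fixed markers (1.45), Leiden clusters (0.87), without cycling cells (1.23), without the 5% highest totals (1.19), in cells with 1000 genes or more and less than 10% mitochondrial counts (1.46) and with DESeq2 (1.39). Leiden clusters left 1 of the 6 genes called there, with Prlr at 1.15, and Ghr was at -0.16 with the fixed markers and at -0.02217 without cycling cells.

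Log2 ratios between stages that left their counting interval are given here. With classes from the fixed markers, they were -0.28 (puberty to estrus) and -0.24 (puberty to diestrus) for Esr1 in ML cells, 4.06 and 2.04 for Prlr in basal cells, -1.76 (diestrus to estrus) and -0.78 (puberty to estrus) for Prlr in LP cells, -0.44 (diestrus to estrus) and -0.09471 (puberty to diestrus) for Prlr in ML cells, and -0.28 (diestrus to estrus) for Nr3c1 in basal cells. With Leiden clusters, Prlr was at -1.09 (diestrus to estrus) and 2.17 (puberty to diestrus) in basal cells and at -1.26 (diestrus to estrus) and -0.50 (puberty to estrus) in LP cells. Without TMM factors, Prlr was at -0.25 (puberty to estrus) and 0.35 (puberty to diestrus) in LP cells and at -0.77 (diestrus to estrus), -0.80 (puberty to estrus) and -0.03259 (puberty to diestrus) in ML cells. As a mean over cells, Prlr was at -0.34 and 0.32 in LP cells and at -0.72, -0.81 and -0.09095 in ML cells in the same order, Pgr in ML cells at 0.93 (puberty to estrus), Ghr and Nr3c1 in LP cells at 0.52 and -0.10 (puberty to diestrus), and 1851 rather than 1204 genes passed 1.5-fold for puberty to estrus in ML cells. Prlr in ML cells was at -0.65 (diestrus to estrus) and -0.56 (puberty to estrus) without the 5% highest totals, at -0.56 (puberty to estrus) and -0.01432 (puberty to diestrus) without cycling cells, and at -0.58 and -0.008144 with the second puberty table. The cause of these changes was not tested. Depth limits Esr1 and Pgr outside ML cells, with 1 to 31 counts per class and library, and Greb1 everywhere.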
